A study of Chlamydomonas reinhardtii with 16 samples.

Results

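In the green alga Chlamydomonas reinhardtii, 66 of the 17301 genes in the deposited table had lower transcript levels in the heme oxygenase mutant hmox1 than in the 4A+ wild type (WT) in all 4 culture conditions studied. The conditions were light with biliverdin IXα (BV), light without BV, dark with BV and dark without BV. The genes were chosen by their own measured levels. The mean RPKM (reads scaled to gene length and library depth) of the 2 libraries of a group, plus 1, had to be at most 0.67 times the WT value in hmox1 in each condition. The mean had to be at least 2 RPKM in dark WT without BV, and genes at 2 times or more in WT by BV in the dark were dropped, which removed 1 gene, Cre10.g423550. The difference between the strains is therefore how the genes were found, and it is given here as a description with no test.

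The study compared hmox1 with 4A+, each fed 0.1 mM BV or not, after light for 30 min (white, 150 µmol photons m-2 s-1) and in darkness just before it. This gives 8 groups of 2 libraries each. All cultures, the controls included, grew without light on a medium that held acetate and 0.5% methanol, whether or not BV was added. Whether the replicates of a group were separate cultures is not stated in the labels, and p-values therefore measure only how far apart these libraries were, which may be technical. With 1 mutant and 1 WT strain, an effect of the mutated gene cannot be told apart from other differences between the strains. Which identifier belongs to the mutated gene was not analysed here, since the files used do not pair identifiers with names.

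Heme oxygenase opens the ring of heme to make biliverdin IXα, a linear tetrapyrrole or bilin. In plastids of algae a ferredoxin-dependent reductase turns biliverdin into further bilins, and in Chlamydomonas, which lacks phytochromes, bilins are known to take part in signalling from the plastid to nuclear genes when dark-grown cells meet light. The hmox1 strain is mutated in a heme oxygenase, and added BV supplies the product of that enzyme.

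Libraries held 10213385 to 43414139 reads in genes, recovered from the steps of the RPKM values. The libraries of light-treated WT with BV stood farther apart than those of the other groups, with a median SD of 0.120 in log2(RPKM + 1) against 0.0530 to 0.0763 elsewhere. Over the genes at 2 RPKM or more in dark WT without BV, hmox1 tended to be higher, with a median log2 ratio of 0.28 in light with BV, 0.30 in light without BV, 0.13 in the dark with BV and 0.11 in the dark without BV. On the authors' scaling 224 genes at that level were higher in hmox1 by the inverse of the same limit in all 4 conditions, against the 66 lower ones. With median-of-ratios scaling, which brings those medians to between -0.02 and 0.07, 110 genes were higher and 126 lower, so which side is the smaller depends on the scaling.

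Of the 10943 genes at the level floor, 301 met the ratio limit in light with BV, 226 in light without BV, 568 in the dark with BV and 430 in the dark without BV. Among the 349 genes that met it in both dark conditions, 19.2% also met it in both light conditions. Among the 99 genes that met it in both conditions without BV, 67.7% also met it in both with BV. Taken the other way, 67 of the 124 genes that met it in both light conditions also met it in both dark ones. Of the 117 genes that met it in both conditions with BV, 67 also met it in both without BV. The shares thus depend on which conditions are taken first. The conjunction left 67 genes, and the 66 members after the drop are 0.603% of the genes at the floor. Just inside the limit, Cre12.g540650 had a ratio of 0.669 in light without BV and Cre09.g409336 of 0.669 in the dark without BV. Just outside, Cre06.g294000 stood at 0.6701 in the dark with BV and Cre02.g130500 at 0.6703 in light with BV. The dropped gene, Cre10.g423550, had ratios of 0.186 to 0.278, and its level in dark WT was 2.03 times as high with BV as without. The floor of 2 RPKM removed no gene that met the ratio limit. The lowest member, Cre07.g318800, averaged 2.46 RPKM in dark WT without BV, and 0 genes under the floor met the limit. The added 1 itself makes the limit hard to meet at low levels, and with 0.1 added the rule gave 100 genes.

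The members spanned a wide range of abundance. In dark WT without BV they ran from 2.46 to 4455 RPKM with a median of 13.4 RPKM, against a median of 7.30 RPKM over all genes at the floor. Their recovered gene lengths had a median of 1902 nt, against 2158 nt. In the dark without BV, the same genes in hmox1 had a median of 3.59 RPKM, with the lowest listed at 0 RPKM and the highest at 1226 RPKM.

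**Figure D1:**
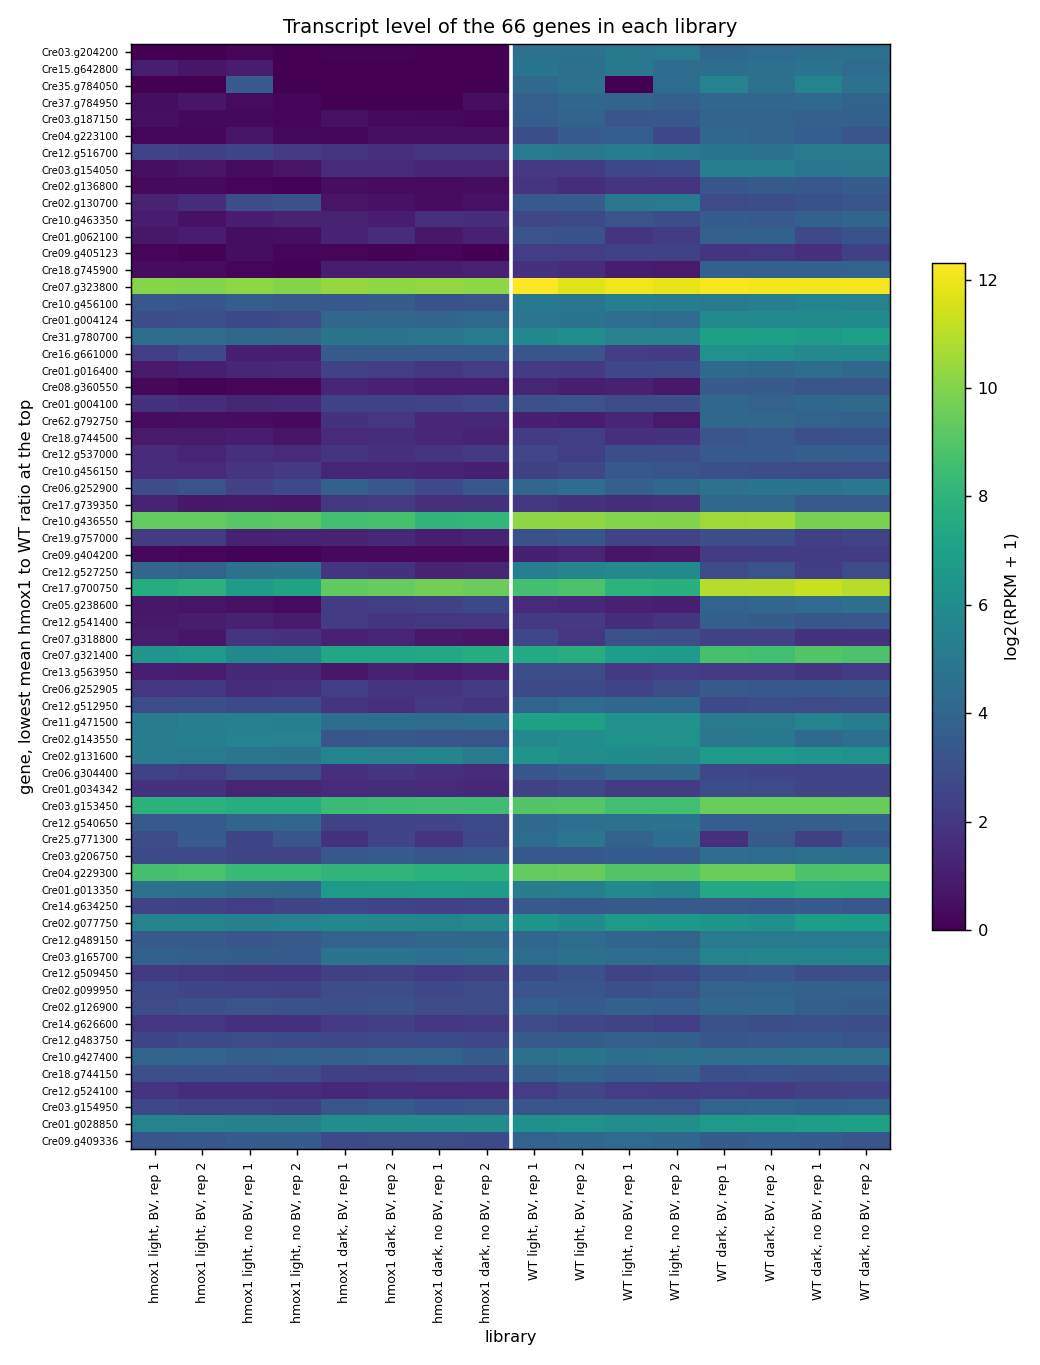
Transcript level, as log2(RPKM + 1) on the colour scale, of the 66 genes (rows, lowest mean hmox1 to WT ratio at the top) in the 16 libraries (columns, hmox1 left of the white line and WT right of it). The top 6 rows are near 0 in hmox1, apart from 1 library of Cre35.g784050, and Cre07.g323800 is the brightest row in both strains.

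The strain ratios, hmox1 over WT with 1 added to both means, had a median of 0.481 in light with BV, 0.491 in light without BV, 0.335 in the dark with BV and 0.373 in the dark without BV. The other genes at the floor had medians of 1.22, 1.23, 1.10 and 1.08 in the same order. In each of the 4 conditions separately, 66, 65, 65 and 65 members had both hmox1 libraries below both WT libraries, and 64 members did so in all 4. The exceptions, named after their values were seen, were Cre25.g771300, which overlapped in both dark conditions, and Cre35.g784050, which overlapped in light without BV. For 37 members every one of the 8 hmox1 libraries lay below every one of the 8 WT libraries, whatever the light or BV. At a stricter limit of 0.5 in all 4 conditions 24 members remained, and at 0.25 there were 6. These values describe what the rule selected and carry no test. A limit on the ratio of the means favours libraries that do not overlap. The counts without overlap were not made for the other genes at the floor.

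Among these ratios, which the rule used, the shifts between light and dark were larger than those between BV and no BV. The ratio was nearer to 1 in light than in the dark for 43 members with BV and for 50 without BV, and for 39 in both. It was nearer to 1 with BV than without for 29 members in light and 33 in the dark, and for 19 in both, while 23 had a lower ratio with BV in both. The median absolute shift of the log2 ratio between light and dark was 0.41 with BV and 0.36 without BV, and that between BV and no BV was 0.17 in light and 0.19 in the dark. All genes at the floor showed the same order, with 0.33 with BV and 0.30 without BV for light against dark, and 0.18 in light and 0.12 in the dark for BV against no BV. The median log2 shift of the members from dark to light was 0.28 with BV and 0.29 without BV. Over all genes at the floor the median log2 ratio was also higher in light, at 0.28 against 0.13 with BV and 0.30 against 0.11 without BV. With median-of-ratios scaling those medians were 0.07 against -0.02 and 0.05 against -0.01. Counts of genes nearer to 1 are not given for all genes at the floor. Because many members were low in light, the added 1 pulls their ratios towards 1. Without it, over the members above 3 reads in the hmox1 group of the condition, the median ratios were 0.404 in light with BV and 0.376 in light without BV (62 members each), and 0.311 in the dark with BV and 0.321 in the dark without BV (61 members each), and the ratio was nearer to 1 in light for 38 of 61 members with BV and 47 of 61 without. Across the 66 members, the ratio in the dark with BV followed that in the dark without BV with a Spearman correlation of 0.935, and the corresponding value in light was 0.700. Between light and dark it was 0.586 with BV and 0.572 without. These correlations are across genes that share libraries, and genes are not independent replicates.

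**Figure D2:**
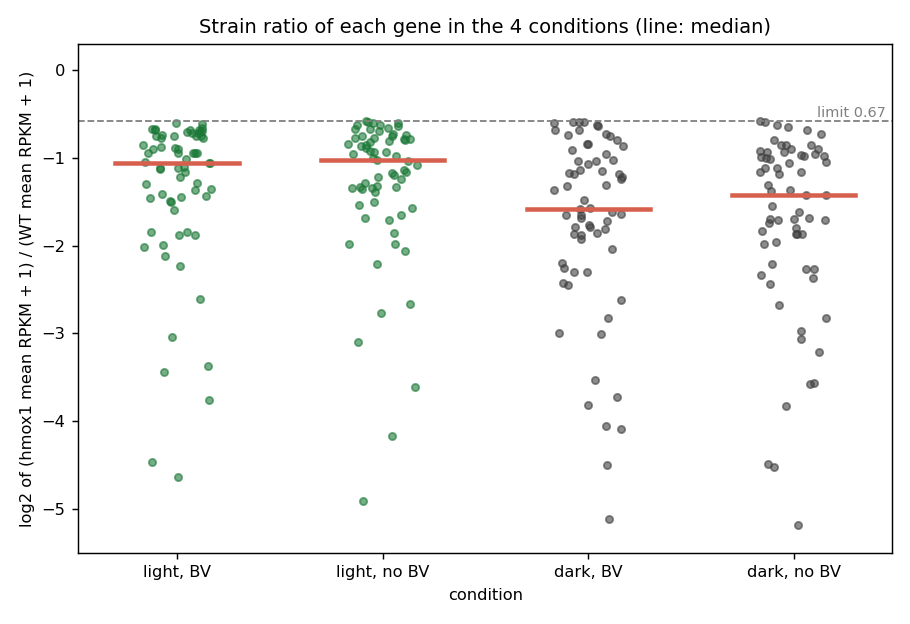
log2 of the strain ratio, (hmox1 mean RPKM + 1) over (WT mean RPKM + 1), of each of the 66 genes (points) in the 4 conditions, with the median as a red line and the limit of 0.67 as a dashed line. The dark medians lie below the light medians, and the lowest ratios of the 4 conditions run from 0.0276 to 0.0402. The lowest in both dark conditions are those of Cre35.g784050, which rests on few reads.

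Cre03.g204200 was nearly without reads in the mutant. Its RPKM was 0 and 0 in light with BV, 0.146 and 0 in light without BV, 0.103 and 0.0773 in the dark with BV, and 0 and 0 in the dark without BV in hmox1. In WT it was 24.3 and 23.5 in light with BV, 30.4 and 32.0 in light without BV, 16.8 and 18.4 in the dark with BV, and 20.7 and 22.3 in the dark without BV. All WT libraries were thus at 16.8 RPKM or more, and no hmox1 library passed 0.146 RPKM. Summed over 8 libraries each, 4 reads in hmox1 stood against 2815 in WT, a 733-fold lower rate in the mutant (exact 95% interval 286 to 2692, counting error only).

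4 further members were at or near 0 reads in hmox1 groups. Cre15.g642800, with a recovered length of 58 nt, had 3 reads in hmox1 and 234 in WT over all libraries, an 81.2-fold lower rate (exact 95% interval 27.5 to 397). Cre37.g784950, of 178 nt, had 8 reads in hmox1 and 463 in WT, a 60.3-fold lower rate (30.3 to 140). Both features are short, so few reads make a high RPKM. Cre09.g405123, of 551 nt, had 13 reads in hmox1 and 326 in WT, a 26.1-fold lower rate (15.1 to 49.6). Cre35.g784050, with a recovered length of 5 nt, rested on 1 read in hmox1 and 21 in WT. It is the only member that did not reach 20 reads in each library of its highest group, and its RPKM values of up to 46.3 in WT stand for a handful of reads.

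Other large differences lay in genes with ample reads in WT. Cre03.g187150, of 1613 nt, ranged from 0.114 to 0.460 RPKM over the hmox1 libraries and from 8.59 to 14.7 RPKM over the WT libraries. That is 61 reads against 3521, a 60.1-fold lower rate in hmox1. Cre04.g223100 ranged from 0.142 to 0.609 RPKM in hmox1 and from 5.30 to 16.5 RPKM in WT, with 76 and 2747 reads. Its WT replicates differed most in light without BV, at 11.96 and 5.30 RPKM, both above every hmox1 library. Cre12.g516700 was low but well measured in the mutant, at 2.13 to 4.87 RPKM in hmox1 against 25.5 to 34.8 RPKM in WT, with ratios of 0.164 in light with BV, 0.157 in light without BV, 0.124 in the dark with BV and 0.108 in the dark without BV. With Cre03.g204200, Cre15.g642800 and Cre37.g784950, these 3 are the members at or under 0.25 in all 4 conditions.

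The most abundant member, Cre07.g323800, was lower in hmox1 at a high level in both strains. In hmox1 it had 1062 and 1039 RPKM in light with BV, 1185 and 1029 in light without BV, 1299 and 1169 in the dark with BV, and 1273 and 1178 in the dark without BV. WT had 5043 and 3287 RPKM in light with BV, 4239 and 3799 in light without BV, 4618 and 4373 in the dark with BV, and 4397 and 4513 in the dark without BV. Its ratios lay between 0.252 and 0.276, so about the same share of the WT level was present in the mutant in each condition. The WT spread was widest in light with BV, the group whose libraries stood farthest apart. At a recovered length of 537 nt it is a short gene. It was 1 of the 6 members called in none of the light comparisons, and it was called in no BV comparison either, with fitted log2 differences between -0.23 and 0.02.

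**Figure D3:**
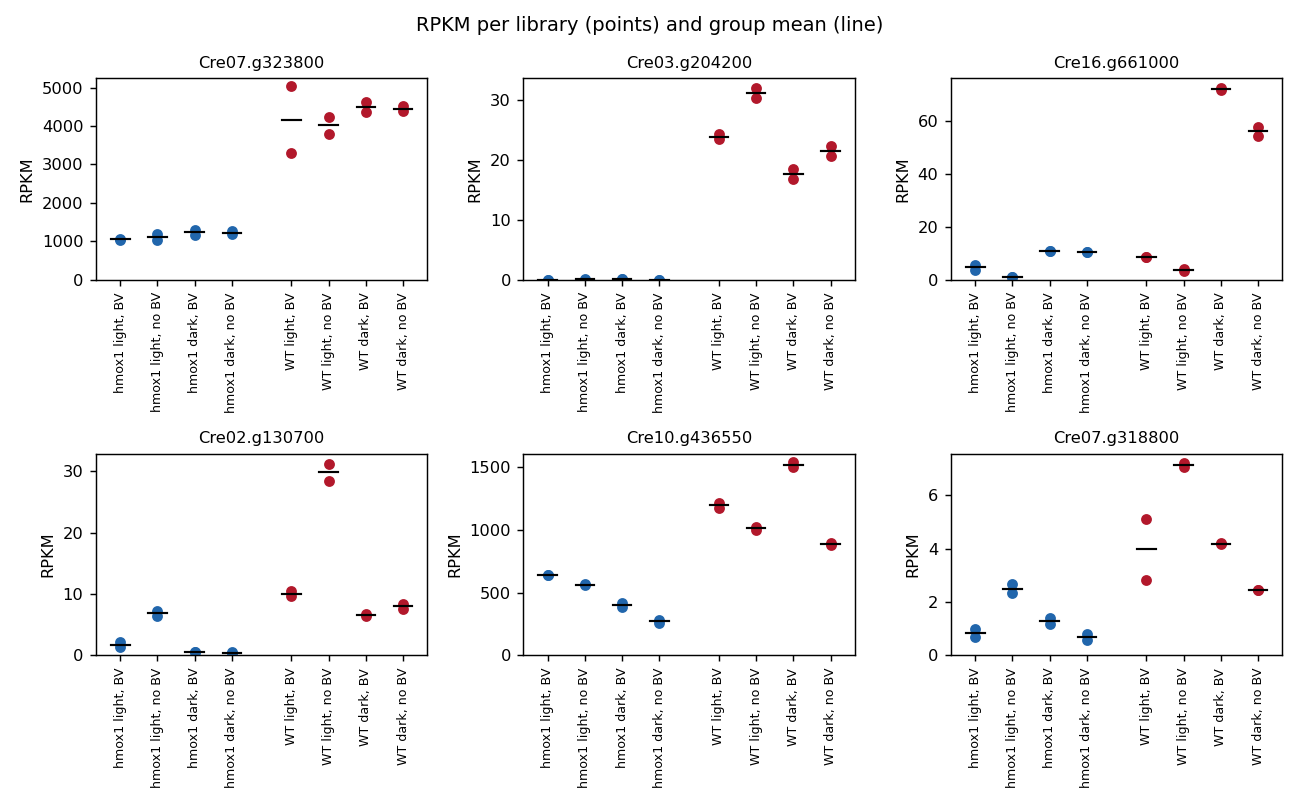
RPKM of 6 members in each library (points, hmox1 blue and WT red) with the group mean as a line, on linear axes that start at 0. Cre07.g323800 and Cre03.g204200 are low in hmox1 under every condition, while the other 4 also move with light or BV.

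Position was examined as a property that the rule did not use. Of the members, 44 matched a locus tag of the RefSeq assembly Chlamydomonas_reinhardtii_v5.5, and only 1 pair, Cre10.g456100 and Cre10.g456150, consisted of neighbours in that annotation. By the order of rows as deposited, 3 pairs stood next to each other: this one, Cre01.g004100 with Cre01.g004124, and Cre06.g252900 with Cre06.g252905. Cre01.g004100 and Cre01.g004124 had closely similar ratios, 0.327 to 0.378 and 0.279 to 0.319. The genes listed on either side of them, Cre01.g004050 and Cre01.g004150, were at 0.0420 and 0.996 RPKM in dark WT without BV, under the level floor. In dark hmox1 without BV they were at 0.179 and 6.45 RPKM. Cre01.g004150 was thus higher in hmox1, with ratios of 1.79 to 3.73. In the RefSeq annotation the gene after Cre01.g004124 is Cre01.g004157, which reached the floor and was also higher in hmox1, with ratios of 2.72 to 4.85. Cre06.g252900 and Cre06.g252905, of 214 and 303 nt, had ratios of 0.300 to 0.446 and 0.373 to 0.594. The next entry, Cre06.g252916 of 203 nt, was also low at 0.547 to 0.748 but missed the limit in light. Reads shared between adjoining or overlapping models cannot be separated here. Among the 49 genes beside a member that were at the floor and no members themselves, the median of the mean log2 ratio was 0.17, against 0.21 over all genes at the floor, and 1 of them (2.04%) averaged under the limit, against 1.37% of all such genes. Members numbered on chromosomes 1 to 17 in their identifiers were 57 of 10276 genes at the floor (0.555%), and those with a higher number, which lie outside the chromosomes, were 9 of 667 (1.35%). Of genes at the floor without a RefSeq match 22 of 2409 were members (0.913%), and of those with one 44 of 8534 (0.516%).

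Light was tested within each strain, a contrast that the rule did not use, with limma on log2(RPKM + 1) over the 13972 genes that reached 1 RPKM in 2 or more libraries, and a call at a Benjamini-Hochberg adjusted p under 0.05. All 66 members were among the tested genes. The level floor in dark WT favours genes that are not low in the dark, which bears on the comparisons with that group. In hmox1 with BV, 16 members were higher in light and 28 lower, where 20.4% and 40.9% of all tested genes were called. In hmox1 without BV, 17 were higher and 30 lower, against 21.3% and 55.2% of all tested genes. WT with BV had 14 members higher and 39 lower, against 23.4% and 55.5%. In WT without BV 15 were higher and 36 lower, against 20.9% and 63.1%. As shares of the 66 members these are 24.2% and 42.4%, 25.8% and 45.5%, 21.2% and 59.1%, and 22.7% and 54.5%. On the authors' scaling, over these 13972 genes, the counts are thus near those of the whole table. With a filter of 5 RPKM in 2 libraries, which some members did not pass, the gap was wider with BV. WT with BV then had 14 members higher and 38 lower (21.2% and 57.6%), against 33.6% and 46.5% of all tested genes. In WT without BV 14 were higher and 35 lower (21.2% and 53%), against 29.7% and 54.8%. In hmox1 16 were higher and 28 lower with BV, against 28.8% and 34.5%, and 17 and 30 without BV, against 29.3% and 47.6%. With other scalings the split moved: quantile normalization gave 25 higher and 22 lower in hmox1 without BV, against 30.1% and 38.8% of all tested genes, and median-of-ratios scaling gave 22 higher and 31 lower in WT without BV, against 28% and 54.2%. The balance of the whole table moved as well, and in WT under quantile normalization it was no longer near that of the members. That scaling gave 16 members higher and 36 lower in WT with BV (24.2% and 54.5%), against 35% and 38.1% of all tested genes. In WT without BV it gave 18 higher and 36 lower (27.3% and 54.5%), against 34.2% and 41%. The median member there moved by -0.50 log2 with BV and -0.37 without BV, against -0.03 and -0.08 over all tested genes.

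The median member moved by -0.17 log2 in hmox1 with BV, -0.21 in hmox1 without BV, -0.45 in WT with BV and -0.47 in WT without BV. All tested genes had medians of -0.16, -0.35, -0.37 and -0.57 in the same order, of the same sign as those of the members. Of the 66 members 33, 30, 35 and 32 lay below the median of all genes. 28 members were lower in all 4 light comparisons, 9 were higher in all 4, and 6 were called in none. These joint counts, like the other combined calls given below, were not made over all tested genes and describe the members only. Genes higher and genes lower in light were thus both among the members, as among all tested genes.

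**Figure D4:**
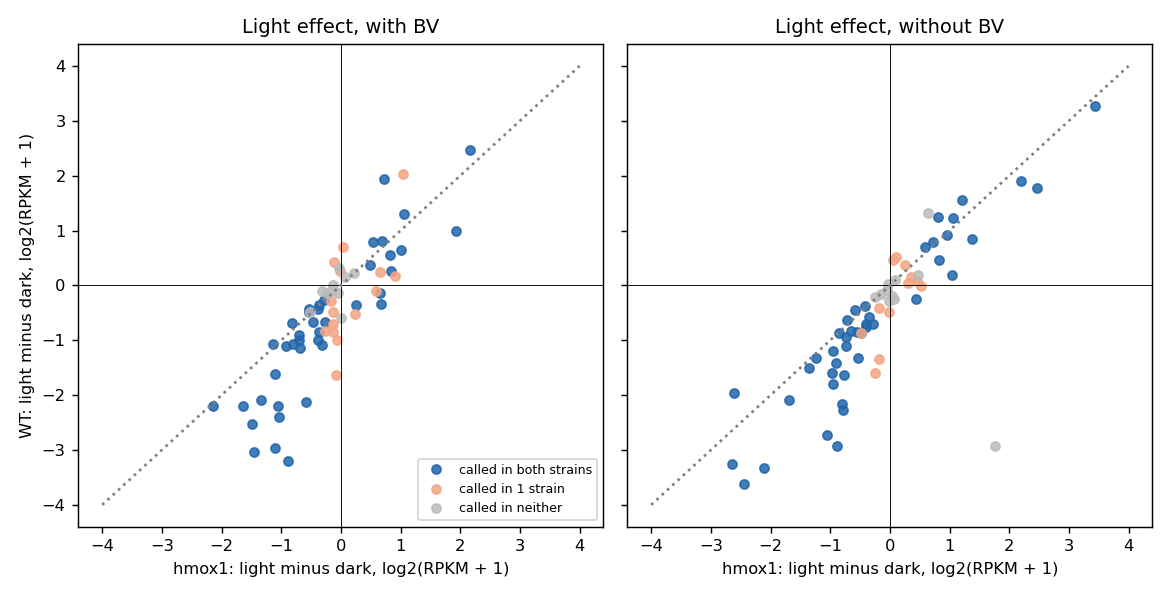
Log2 difference between light and dark, on the log2(RPKM + 1) scale, of each of the 66 genes in hmox1 (x axis) and WT (y axis), with BV (left) and without BV (right). Colours show in how many strains limma called the change, and the dotted line marks equal changes. Points at the lower left had lower levels in light in both strains, and Cre12.g527250 is at the upper right in both panels.

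Cre17.g700750, next in abundance in dark WT, fell steeply in light. In hmox1 it had 192 and 235 RPKM in light with BV, 112 and 133 in light without BV, 634 and 701 in the dark with BV, and 813 and 721 in the dark without BV. WT had 390 and 471 RPKM in light with BV, 247 and 221 in light without BV, 1969 and 1991 in the dark with BV, and 2447 and 2038 in the dark without BV. Light and dark libraries did not overlap in either strain, and each hmox1 group was below the WT group of its condition. The log2 difference of light was -1.64 ± 0.13 in hmox1 with BV (SE; limma adjusted p = 1.2e-07) and -2.64 ± 0.13 without BV (adjusted p = 4.5e-10). In WT it was -2.21 with BV and -3.25 without BV.

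Cre01.g013350 had 23.9 and 21.8 RPKM in hmox1 in light with BV and 18.2 and 16.9 without BV, against 103 and 106 in the dark with BV and 114 and 112 without BV. WT had 36.7 and 38.0 RPKM in light with BV and 53.5 and 49.6 without BV, against 171 and 178 in the dark with BV and 208 and 201 without BV. The difference in light was -2.15 ± 0.07 log2 in hmox1 with BV and -2.62 ± 0.07 without BV (SE; limma adjusted p = 9.3e-13 and 2.7e-14). In both strains every light library lay below every dark library.

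The members with the largest falls in WT were, like all members by the rule, lower in hmox1 than in WT already in the dark. Cre16.g661000 had 3.65 and 5.51 RPKM in hmox1 in light with BV and 1.09 and 1.05 without BV, against 10.9 and 10.9 in the dark with BV and 10.3 and 10.3 without BV. In WT it had 8.38 and 8.38 RPKM in light with BV and 3.89 and 3.37 without BV, against 72.6 and 71.8 in the dark with BV and 54.3 and 57.9 without BV. Its difference in WT without BV was -3.63 ± 0.12 log2 (SE; limma adjusted p = 8.6e-14). The strain ratio was accordingly 0.595 in light with BV and 0.447 in light without BV, against 0.162 in the dark with BV and 0.198 in the dark without BV.

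Cre05.g238600 fell by 3.32 log2 in light in WT without BV (SE 0.11; limma adjusted p = 1.4e-13), to 1.201 and 1.05 RPKM against 18.7 and 22.0 RPKM in the dark. Cre03.g154050 fell by 3.19 in WT with BV (SE 0.11; limma adjusted p = 1.8e-13), to 3.14 and 3.38 RPKM against 38.4 and 37.6 RPKM. In hmox1 with BV the same gene had 0.417 and 0.589 RPKM in light against 1.73 and 1.81 RPKM in the dark, so its dark level was already low in the mutant. Cre62.g792750 fell by 3.05 in WT with BV (SE 0.12; limma adjusted p = 1.2e-12), to 1.14 and 0.924 RPKM against 16.02 and 15.5 RPKM. On the log2(RPKM + 1) scale the change of genes near 1 RPKM is understated, which touches hmox1 more than WT, so light effects of the strains are given side by side and not compared by a test.

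Cre12.g527250 had the largest rise in light of the members in all 4 comparisons. In hmox1 it had 15.4 and 14.7 RPKM in light with BV and 24.1 and 25.4 without BV, against 2.68 and 2.49 in the dark with BV and 1.26 and 1.48 without BV. WT had 39.1 and 47.0 RPKM in light with BV and 55.8 and 57.7 without BV, against 6.06 and 7.79 in the dark with BV and 3.92 and 6.36 without BV. The rise was 2.16 ± 0.15 log2 in hmox1 with BV, 3.44 ± 0.15 in hmox1 without BV, 2.48 ± 0.15 in WT with BV and 3.26 ± 0.15 in WT without BV (SE; limma adjusted p = 1.2e-08, 2.6e-11, 8.4e-10 and 2.3e-11). The gene kept ratios of 0.364 to 0.452 throughout, so light raised it in both strains while the mutant stayed lower.

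Cre02.g143550 rose by 1.92 ± 0.09 log2 in light in hmox1 with BV, to 36.6 and 38.3 RPKM against 8.94 and 9.35 in the dark (SE; limma adjusted p = 6.3e-11). In WT without BV it rose by 1.89 ± 0.09, to 77.2 and 79.1 RPKM against 18.4 and 22.4 (limma adjusted p = 1.5e-11). Cre25.g771300 was called higher in light in WT with BV, at 19.2 and 27.8 RPKM against 2.23 and 9.89 in the dark (2.02 ± 0.64 log2; limma adjusted p = 0.017). In every group of both strains its replicate 2 had a higher RPKM than its replicate 1, and the cause was not tested. The call was lost without replicate 1 of dark WT with BV or replicate 2 of light-treated WT with BV, where the difference was 1.15 and 1.77.

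6 members were called in opposite directions in different light comparisons, a count not made over all tested genes. Each of them was lower in light in WT with BV, and 5 were higher in light in hmox1 without BV. Cre10.g436550 is the most abundant of them. It had 640 and 643 RPKM in hmox1 in light with BV and 557 and 569 without BV, against 382 and 419 in the dark with BV and 260 and 284 without BV. In WT it had 1173 and 1218 RPKM in light with BV and 1026 and 1003 without BV, against 1503 and 1541 in the dark with BV and 879 and 898 without BV. Light thus raised it in hmox1 in both cases, by 0.68 ± 0.06 log2 with BV and 1.05 ± 0.06 without BV, while in WT it was lower in light with BV, with a difference of -0.35 ± 0.06 (SE; limma adjusted p = 1.0e-07, 2.5e-10 and 8.0e-05). In WT without BV it was higher in light by 0.19 log2.

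4 members were called lower in light in WT with and without BV and in hmox1 in neither case, a count not made over all tested genes. They are named after their values were seen: Cre02.g136800, Cre09.g404200, Cre01.g034342 and Cre10.g456100. Cre09.g404200 stood at 0.213 and 0.154 RPKM in hmox1 in light with BV and 0.233 and 0.248 RPKM in the dark with BV, where WT had 1.08 and 1.46 RPKM in light and 3.47 and 3.53 RPKM in the dark. Cre02.g136800 was likewise at or under 0.355 RPKM in every hmox1 library. At such levels in hmox1 little fall can be seen on this scale. Cre01.g034342 was higher in light in hmox1 with BV (0.25 ± 0.10 log2; limma adjusted p = 0.034), and Cre10.g456100 in hmox1 without BV (0.43 ± 0.09 log2; limma adjusted p = 5.6e-04).

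Few genes were called for BV in dark hmox1, among the members and in the whole table. Limma called 1 member higher and 0 lower (1.52% and 0%), where 0.193% and 0.129% of all tested genes were called. With 1 member called, the shares are not compared. The 1 was Cre10.g436550, at 382 and 419 RPKM in hmox1 with BV against 260 and 284 RPKM without BV, a rise of 0.56 ± 0.06 log2 (SE; limma adjusted p = 2.1e-04). At an unadjusted limma p under 0.05 there were 13 members, 9 of them higher, which is 19.7% against 6.44% of all tested genes. Limma-voom on the recovered reads called 1 higher and 0 lower, against 0.215% and 0.136% of all tested genes. In the rise with BV, hmox1 stayed below every WT library, the lowest of which had 879 RPKM. The same gene in dark WT, a contrast that the rule used, had 1503 and 1541 RPKM with BV and 879 and 898 RPKM without.

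In light, BV moved the members in both directions. In light-treated hmox1, 12 members were higher with BV and 10 lower, against 26.3% and 11.2% of all tested genes. In light-treated WT 22 were higher and 15 lower, against 32.7% and 13% of all tested genes. The members' shares, 18.2% and 15.2% in hmox1 and 33.3% and 22.7% in WT, are a description with no test. The median member moved by 0.12 in hmox1 and 0.13 in WT, and the median over all tested genes by 0.13 in both. Median-of-ratios scaling gave 7 higher and 12 lower in hmox1, against 19.4% and 16.3% of all tested genes, and 16 higher and 19 lower in WT, against 26.2% and 21.1%. The balance of rises and falls thus depends on the scaling, in the members and in the whole table. Without replicate 1 or replicate 2 of light-treated hmox1 without BV the members lower in hmox1 numbered 6, which is 9.09% against 8.34% and 7.95% of all tested genes. Without replicate 1 or 2 of light-treated WT with BV, the libraries that stood apart, the counts in WT were 22 and 21 higher and 13 and 13 lower, where all tested genes had 36.4% and 24.7% higher and 9.29% and 17% lower. 10 members were higher with BV in both strains, 8 lower in both, and 27 were called in no BV comparison tested. The same joint counts were not made over all tested genes.

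**Figure D5:**
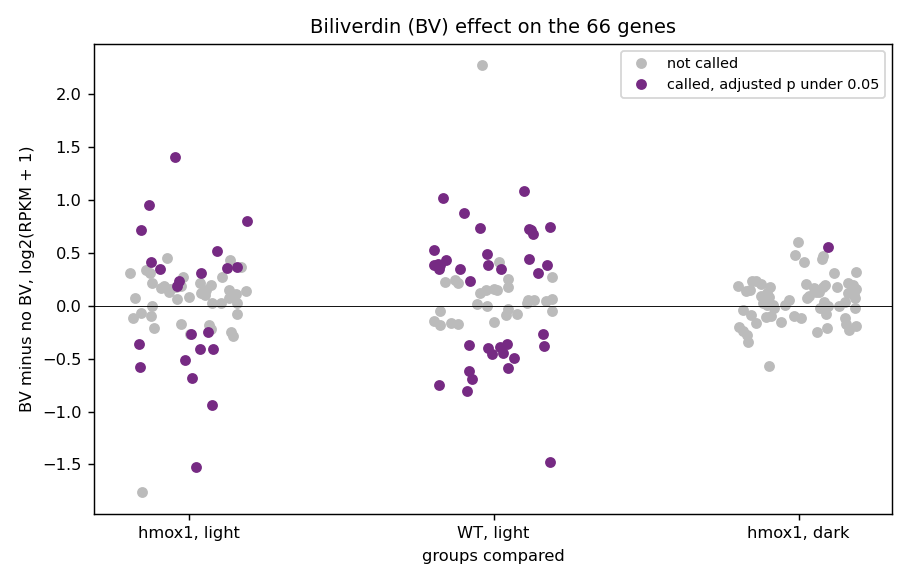
Log2 difference between BV and no BV, on the log2(RPKM + 1) scale, of each of the 66 genes in light-treated hmox1, light-treated WT and dark hmox1, with genes called by limma in purple and the others in grey. Dark hmox1 has 1 purple point, and the far grey points in the light groups are Cre35.g784050, which rests on few reads.

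Among called members, Cre02.g130700 had the largest fall with BV in light in both strains. In light it had 1.37 and 2.10 RPKM in hmox1 with BV against 6.46 and 7.16 without BV, and 9.66 and 10.4 RPKM in WT with BV against 28.4 and 31.2 without BV. In the dark it had 0.543 and 0.518 RPKM in hmox1 with BV against 0.318 and 0.508 without BV, and 6.35 and 6.68 RPKM in WT with BV against 7.58 and 8.42 without BV. BV thus went with a lower level after light, where the libraries did not overlap, while the dark libraries of hmox1 hardly differed. The log2 difference was -1.52 ± 0.12 in hmox1 and -1.48 ± 0.12 in WT (SE; limma adjusted p = 8.8e-08 and 8.2e-08). Light raised this gene in hmox1 by 2.47 ± 0.12 log2 without BV (limma adjusted p = 2.6e-11) and by 0.83 with BV.

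Cre07.g318800, the lowest member, had 0.982 and 0.690 RPKM in light-treated hmox1 with BV and 2.68 and 2.32 RPKM without BV, and the difference was -0.93 ± 0.16 log2 (SE; limma adjusted p = 3.1e-04). In light-treated WT it had 5.12 and 2.82 RPKM with BV and 7.21 and 7.06 RPKM without BV. Cre10.g456150 was at 4.01 and 5.12 RPKM in light-treated WT with BV and 9.34 and 8.09 RPKM without BV (-0.81 ± 0.11 log2; limma adjusted p = 2.0e-05). It is 1 of the neighbouring pair with Cre10.g456100, which was also lower with BV in light in both strains, with differences of -0.27 log2 in hmox1 and -0.36 log2 in WT.

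Cre16.g661000 had the opposite response in light. With BV it was at 3.65 and 5.51 RPKM in hmox1 against 1.09 and 1.05 RPKM without BV, and at 8.38 and 8.38 RPKM in WT against 3.89 and 3.37 RPKM. The rise was 1.41 ± 0.12 log2 in hmox1 and 1.02 ± 0.12 in WT (SE; limma adjusted p = 1.5e-07 and 3.5e-06). The hmox1 libraries with BV stayed below the WT libraries with BV, and 1 of them lay between the WT libraries without BV and the other above both. Cre19.g757000 rose with BV in light-treated hmox1, to 3.39 and 3.40 RPKM against 1.22 and 1.32 RPKM (0.95 ± 0.11 log2; limma adjusted p = 4.8e-06). Cre01.g062100 rose in light-treated WT, to 7.79 and 7.65 RPKM against 2.73 and 3.53 RPKM (1.08 ± 0.15 log2; limma adjusted p = 1.9e-05).

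For 2 members, named after their values were seen, BV was called in opposite directions in the strains in light. Cre01.g013350 was higher with BV in hmox1, by 0.36 ± 0.07 log2, and lower with BV in WT, with a difference of -0.45 ± 0.07 (SE; limma adjusted p = 8.1e-04 and 6.9e-05). Cre13.g563950 was lower with BV in hmox1, at 1.06 and 0.912 RPKM against 1.66 and 1.62 RPKM without BV. In WT it was higher with BV, at 6.67 and 5.98 RPKM against 3.14 and 3.75 RPKM. Their strain ratios moved accordingly, to 0.622 in light with BV against 0.353 in light without BV for Cre01.g013350, and to 0.271 against 0.593 for Cre13.g563950. The difference of the BV effect between the strains was not tested, since it is made of the ratios that the rule used.

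The last comparison asked whether the BV effect differed between light and dark within a strain. In hmox1 the BV effect was more positive in light for 11 members and more negative for 9, against 15.9% and 6.83% of all tested genes. In WT it was more positive for 12 and more negative for 11, against 22.3% and 9.17%. The WT term holds the BV effect in dark WT, which the rule used to drop genes at 2 times or more. That step removed 1 gene, and all tested genes were not limited in this way. The medians were 0.03 in hmox1 and 0.02 in WT for the members and 0.15 in both strains for all tested genes, and 44 and 41 of the 66 members lay below that of all genes. Median-of-ratios scaling gave 8 and 11 members in hmox1, against 10.6% and 10.5% of all tested genes, and 6 and 16 in WT, against 15.3% and 15.9%. Quantile normalization gave 8 and 10 in hmox1, against 8.75% and 9.29%, and 7 and 13 in WT, against 14.8% and 12.6%. Without replicate 2 of dark hmox1 without BV the members with a more positive effect in hmox1 numbered 6, where 10.8% of all tested genes had one.

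Among called members, Cre02.g130700 and Cre07.g318800 had the most negative differences in both strains, and Cre17.g700750 was among the most positive in both. For Cre02.g130700 the difference was -1.64 ± 0.17 log2 in hmox1 and -1.22 ± 0.17 in WT (SE; limma adjusted p = 5.0e-06 and 5.6e-05). Cre07.g318800 had -1.37 ± 0.23 in hmox1 and -1.33 ± 0.23 in WT (limma adjusted p = 4.6e-04 and 3.3e-04). In the dark it had 1.16 and 1.39 RPKM in hmox1 with BV against 0.782 and 0.577 RPKM without BV, a difference that was not called, and 4.20 and 4.18 RPKM in WT with BV against 2.46 and 2.46 RPKM without BV. Cre17.g700750 had 1.00 ± 0.18 in hmox1 and 1.05 ± 0.18 in WT (limma adjusted p = 0.0016 and 6.3e-04).

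Cre16.g661000 had a difference of 1.34 ± 0.17 log2 in hmox1 (SE; limma adjusted p = 3.2e-05). Cre07.g321400, of 7230 nt, had 1.02 ± 0.13 in WT (limma adjusted p = 1.9e-05). In WT it was at 184 and 199 RPKM in light with BV and 117 and 112 RPKM in light without BV, and at 421 and 383 RPKM in the dark with BV and 519 and 463 RPKM in the dark without BV. Each hmox1 group was lower than the WT group of its condition, with strain ratios of 0.484 in light with BV, 0.489 in light without BV, 0.402 in the dark with BV and 0.373 in the dark without BV.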

How the data were processed

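RNA was sequenced as single-end 100 nt reads on a HiSeq instrument, per the labels' protocols. The authors deposited 1 table of 17301 genes by 16 libraries in RPKM. Its header names no unit, which was taken from the values. Bowtie was used, per the submitters' processing notes. Not given in the sources used here were its version, the genome build, the annotation and any use of strand, so genes that overlap or have close copies can share reads and no coordinates are printed. Whole reads and gene lengths were recovered from the RPKM steps for 16851 of 16852 genes above 0, within 0.1 reads. Read intervals cover counting error only.

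Tests used limma 3.58.1 (R 4.3.3) on log2(RPKM + 1), with 8 group means, 8 residual degrees of freedom, a mean trend, robust moderation and Benjamini-Hochberg adjustment in each of 9 comparisons. The model and the read recovery were tested on simulated data. The members and lists were chosen with earlier results of these data known. Named genes, at 20 reads or more in each library of the highest group, were the 4 lowest and 4 highest in dark WT without BV, the 6 lowest by mean ratio, the 2 on each side of the ratio limit, the 2 largest called rises and falls without overlap in each comparison, and neighbouring members. Gene names, descriptions and sequences were not used here, so no roles are given. Alternatives covered the rule, scaling, pseudocount, filter, trend, groups fitted, a replicate block, each library left out and, added after seeing the data, limma-voom on the recovered reads.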

Additional observations from a re-analysis of the deposited data

Results flagged for a closer look

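The BV effect differed between light and dark, by limma's interaction term on log2(RPKM + 1), for these named members. In hmox1 it was -1.64 for Cre02.g130700, -1.37 for Cre07.g318800, 1.34 for Cre16.g661000 and 1.00 for Cre17.g700750. In WT, where the rule limited the BV effect in the dark, it was -1.22 for Cre02.g130700, -1.33 for Cre07.g318800, 1.02 for Cre07.g321400 and 1.05 for Cre17.g700750. Each kept its call under all alternatives tried.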

How the results depend on the processing

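The rule gave 24 genes at a ratio limit of 0.5, 156 at 0.8, 100 with 0.1 added in place of 1 and 126 with median-of-ratios scaling, the last 3 holding all 66 members, and 62 to 67 without 1 library. Replicate 1 alone gave 63 genes and replicate 2 alone 64, of which 47 were in both. Of the 19 counts, 11 stayed within 1.5 times of their value under all alternatives run. Fitting only the groups compared gave 2 members higher and 1 lower with BV in dark hmox1 (3.03% and 1.52%), against 0.365% and 0.222% of all tested genes. It gave 14 higher with BV in light-treated WT (21.2%), against 24.8% of all tested genes. Median-of-ratios scaling gave 7 higher with BV in light-treated hmox1, against 19.4% of all tested genes. It gave 6 with a more positive BV effect in light in WT, against 15.3%, where quantile normalization gave 7, against 14.8%. With single libraries left out, the members higher with BV in dark hmox1 numbered 1 to 2 (2 without either replicate of dark WT without BV), those lower with BV in light-treated hmox1 6 to 10, and those with a more positive BV effect in light in hmox1 6 to 12. Of 33 results for named genes, 32 were called under all alternatives, and that of Cre25.g771300 for light in WT with BV was not: its difference was 2.02 when only the groups compared were fitted. The cause was not tested.

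Deviations of same-numbered libraries correlated between -0.15 and 0.27 over 28 pairs of groups, above 0.1 in 10 of them. These values do not settle whether the numbers mark pairs, and the main fit did not treat the libraries as paired. With the number as a replicate block, light in hmox1 without BV gave 19 members higher and 32 lower (28.8% and 48.5%), against 21.7% and 56% of all tested genes. BV in light-treated WT gave 24 higher and 15 lower (36.4% and 22.7%), against 34% and 13.7%. With 2 libraries in a group and members down to 1 read in hmox1, small differences may have gone undetected, most of all in members with few reads.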
